A study of Mus musculus with 6 samples.

Results

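The genes described here are 38 mouse genes of glucose uptake, glycolysis, lactate handling and the transcriptional response to low oxygen, followed through 6 Illumina mouse bead arrays. They were chosen by gene symbol, as probes whose annotated symbol is on a list of enzymes, transporters, oxygen sensors and hypoxia targets. Membership rested on the symbol, but the list was drawn up with earlier results of these data known. Of the 38, 35 had a probe listed under their symbol and 30 had a probe detected on at least 3 of the 6 arrays, out of 9756 genes tested in all. Hk2, Gpi1 and Eno1 had no probe listed under their symbol and were not analysed here. Bnip3, Ldhb, Epas1, Pfkfb3 and Slc16a1 had a probe that missed the detection filter: the Ldhb probe was detected on 2 untreated arrays, and the probes of the other 4 genes were detected on none.

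The 3 withaferin A arrays carried RNA from a mouse cancer cell culture expressing rat her-2/neu, the rat form of the oncogene Erbb2, after 6 h with 8 µM withaferin A, a steroidal lactone from the plant Withania somnifera. The 3 untreated arrays carried RNA from the same cells without the compound. All cells were cultured in DMEM with fetal bovine serum, gentamicin and glutamine, at passages 2, 3 and 4, and the labels do not say which passage belongs to which array number. The labels give no oxygen tension, glucose concentration or vehicle, and no strain or promoter for the oncogene. The arrays are named below by group and number, for example untreated array 2.

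Glycolysis converts glucose to pyruvate in preparatory steps that consume ATP and payoff steps that yield it, and many tumour cells then reduce the pyruvate to lactate and export it. When oxygen is low, the prolyl hydroxylases no longer mark the alpha subunit of hypoxia-inducible factor (HIF) for destruction, and HIF raises the transcription of glucose transporters, most glycolytic enzymes, lactate dehydrogenase A and membrane carbonic anhydrases. Oncogenic signalling through receptor tyrosine kinases can also raise HIF and glycolytic genes in cultured cells with oxygen present.

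All levels below are normalised log2 intensities, so a difference of 1 is a doubling, and a change is the mean of the 3 withaferin A arrays minus the mean of the 3 untreated arrays. A gene passed the test if its adjusted p from limma, with Benjamini-Hochberg adjustment over all tested probes, was under 0.05. Between 18275 and 20104 probes were detected per array. The median raw intensity of the tested probes was 191.8, 202.0 and 198.2 on the withaferin A arrays, against 234.4, 235.9 and 218.5 on the untreated arrays. No array stood apart over all tested probes: the correlation within the withaferin A group was 0.975 to 0.990, within the untreated group 0.979 to 0.984, and between the groups 0.950 to 0.976. Of the luminal epithelial markers, 6 of 7 were detected on at least 3 arrays, with a summed raw intensity of 11504 to 14611 on withaferin A arrays against 15396 to 19265 on untreated arrays, while Epcam was detected on no array. Probes for 4 leukocyte and 4 endothelial markers were not detected on as many as 3 arrays, and 5 of 8 fibroblast markers were detected on none. The fibroblast markers Pdgfra and Dcn were detected on all 6 arrays, and the summed raw intensity of the fibroblast list was 2049 to 2393 on withaferin A arrays against 3853 to 5357 on untreated arrays. Of the basal markers, 3 of 4 were detected on at least 3 arrays, with a summed raw intensity of 564.1 to 748.5 on withaferin A arrays against 404.7 to 429.0 on untreated arrays. Within that list, Krt14 had raw intensities of 327.2, 403.3 and 521.6 with withaferin A, against 136.6, 90.8 and 120.7 untreated. Trp63, detected on 3 arrays, ran the other way, at 65.7 to 75.4 with withaferin A against 121.0 to 160.6 untreated, and Krt5 was detected on none. The part of these marker differences in the results below was not tested. The mouse Erbb2 probe, which may not read the rat transgene, gave raw intensities of 183.8 to 197.6 on withaferin A arrays and 156.3 to 194.7 on untreated arrays.

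Withaferin A was compared with no treatment to ask whether 6 h of the compound altered the transcripts of these pathways. None of the 30 genes passed the test in either direction, while 666 of 9756 tested genes did (6.83%), 274 of them higher (2.81%) and 392 lower (4.02%). By unadjusted p under 0.05, 2 of the 30 genes were past the threshold in limma (all genes: 26%), the glucose transporters Slc2a1 and Slc2a3, both higher on the withaferin A arrays (all genes, higher: 11.8%). The withaferin A and untreated levels did not overlap for 3 of the 30 (all genes: 30.7%), namely Slc2a1, Slc2a3 and Slc16a3, all higher (all genes: 14.9% higher and 15.8% lower). The median change was 0.10 over the 30 genes and 0.0054 over all tested genes, with a range of −0.54 to 1.14, and 22 of the 30 changes were above 0 (all genes: 50.7%). Under median scaling in place of quantile normalisation, the median change of all genes was −0.18 and that of the 30 genes −0.034. Changes were then above 0 for 14 of the 30 and for 2877 of all 9756 genes. That scaling called 172 genes higher and 1256 lower (14.6% of all genes in either direction), and among the 30 it called Slc2a1 alone (3.33%). In the main fit, the count over all genes was 238 without withaferin A array 1, 319 without withaferin A array 2 and 886 without withaferin A array 3. It was 451 without untreated array 1, 437 without untreated array 2 and 315 without untreated array 3. With the array number as a block, 1023 of all genes passed (10.5%) and 2 of the 30 (6.67%), Slc2a1 and Adm. Whether the numbers mark pairs was not settled. In RNA from a whole culture, fewer cells that carry a transcript and less of it per cell cannot be told apart.

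**Figure D1:**
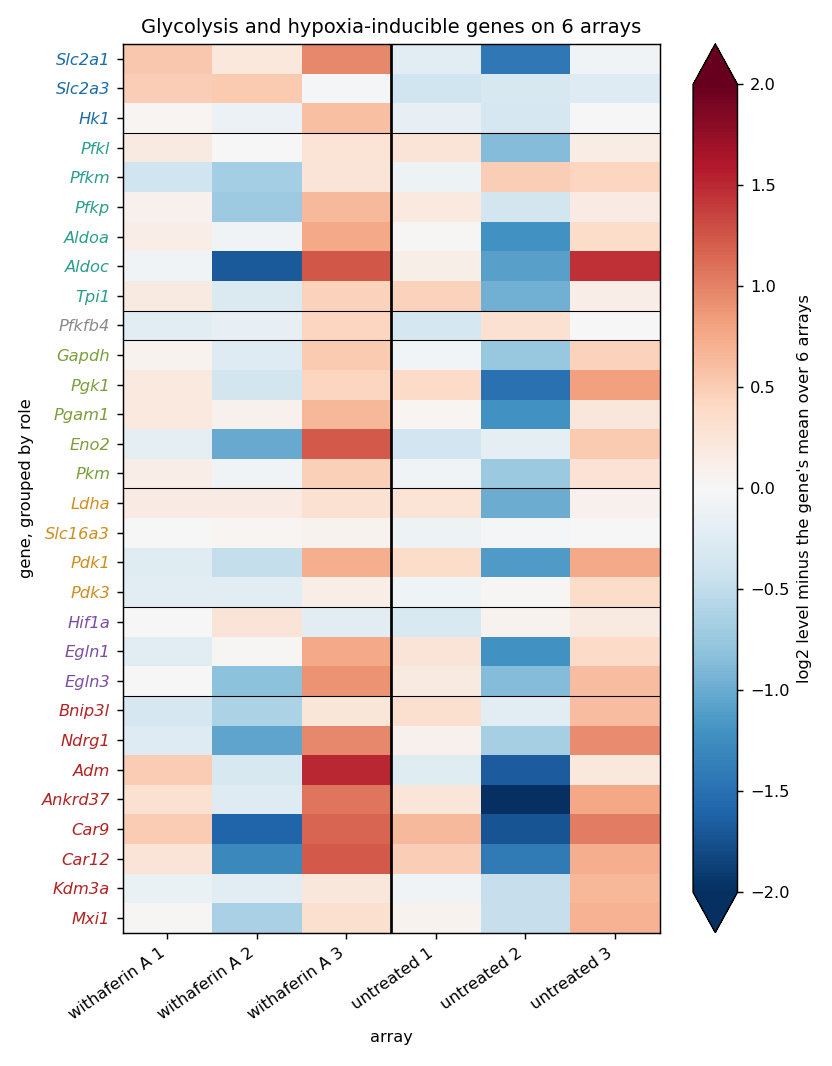
Normalised log2 level of each of the 30 tested genes on each array, minus that gene's mean over the 6 arrays; rows are genes in order of role, with row labels coloured by role, and columns are arrays, withaferin A left of the black line and untreated right of it. Red is above and blue below the gene's mean, and most rows are blue on array 2 of both groups and red on array 3.

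The transporters that bring glucose into the cell were the genes nearest to passing. Slc2a1, the widely expressed glucose transporter GLUT1, read 12.51, 12.19 and 12.95 on the withaferin A arrays, against 11.76, 10.56 and 11.90 on the untreated arrays. Each withaferin A array was above each untreated array, and untreated array 2 was the lowest. The change was 1.14 (SE 0.34, 95% interval 0.38 to 1.91), or 2.21-fold, with a limma adjusted p of 0.0810. Without untreated array 2 the change was 0.72, and in the 17 alternative settings it ran from 0.72 to 1.39 and passed in 5. Slc2a3, the transporter GLUT3, read 6.11, 6.13 and 5.57 with withaferin A, against 5.21, 5.30 and 5.35 untreated. These levels are near the array's background, and the raw intensities were 114.5, 118.9 and 99.8 against 97.5, 99.8 and 97.4, so that withaferin A array 3 and untreated array 2 had the same raw value. Its change was 0.65 (SE 0.18, limma adjusted p = 0.0704), was 0.83 and passed without withaferin A array 3 (limma adjusted p = 0.0195), and was 0.27 without background correction. Hk1, the hexokinase that traps glucose as glucose 6-phosphate, had a change of 0.35 with overlapping groups, and its second probe gave −0.0036.

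The preparatory steps gave 3 changes above 0 and 3 below among 6 tested genes, and none passed. Pfkm, the muscle-type subunit of phosphofructokinase, which commits sugar to glycolysis, read 9.35, 9.07 and 10.01 with withaferin A, against 9.65, 10.23 and 10.17 untreated. Its withaferin A arrays 1 and 2 lay below all untreated arrays, but array 3 did not, and the change of −0.54 (SE 0.26) had a limma adjusted p of 0.234. It was −0.34 without withaferin A array 2 and −0.81 without withaferin A array 3 (limma adjusted p = 0.0535), and it passed in 2 of 17 alternative settings. The other Pfkm probes gave −0.60 and −0.15. Of the other phosphofructokinase subunits, Pfkl, the liver type, had a change of 0.31 and Pfkp, the platelet type, one of −0.0027, and the differences between subunits were not tested. Aldoa, the main aldolase of most cells, read 13.20, 12.99 and 13.83 with withaferin A, against 13.09, 11.85 and 13.44 untreated. Its change of 0.55 (SE 0.38, limma adjusted p = 0.411) was 0.077 without untreated array 2. Aldoc, the aldolase best known from brain, read 8.83, 7.22 and 10.15 with withaferin A, against 9.01, 7.82 and 10.37 untreated. The arrays within each group differed more from each other than the group means did, and the change was −0.33 (SE 0.74). Tpi1, which interconverts the triose phosphates, had a change of 0.24, and its 3 probes gave 0.22 to 0.26. Pfkfb4, which makes and removes the phosphofructokinase activator fructose 2,6-bisphosphate, read 6.99, 7.06 and 7.66 with withaferin A, against 6.87, 7.53 and 7.23 untreated, a change of 0.026 (SE 0.23, limma adjusted p = 0.960) that was −0.22 under median scaling.

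All 5 tested payoff genes had a change above 0 (all genes: 50.7%), and none passed. Under median scaling, 4 of 5 were above 0 (2877 of all 9756 genes). Pgam1, phosphoglycerate mutase, read 10.81, 10.71 and 11.28 with withaferin A, against 10.66, 9.41 and 10.84 untreated. The change of 0.63 (SE 0.34, limma adjusted p = 0.295) was 0.18 without untreated array 2, the lowest of the 6. Pkm, pyruvate kinase, read 13.93, 13.72 and 14.28 with withaferin A, against 13.72, 13.05 and 14.08 untreated, a change of 0.36 (SE 0.26, limma adjusted p = 0.436) that was 0.075 without untreated array 2 and 0.21 without withaferin A array 3. A dimmer Pkm probe gave a change of 0.96 (limma adjusted p = 0.0674), so the 2 probes of this gene differed in size. Gapdh had a change of 0.23, and Eno2, the neuronal enolase, one of 0.025. Pgk1, the first ATP-yielding enzyme of the pathway, read 13.29, 12.73 and 13.53 with withaferin A, against 13.48, 11.61 and 13.92 untreated. The groups overlapped, untreated array 2 was the lowest of the 6 arrays, and the change was 0.18 (SE 0.51).

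Among the genes of pyruvate and lactate, none of 4 passed. Ldha, which reduces pyruvate to lactate, read 14.33, 14.33 and 14.48 with withaferin A, against 14.44, 13.17 and 14.25 untreated. Untreated array 2 stood about 1 log2 unit under the other 5 arrays, which were close together. The change of 0.43 (SE 0.29, limma adjusted p = 0.403) was 0.038 without that array. Slc16a3, the lactate exporter MCT4, read 5.13 to 5.17 with withaferin A and 5.01 to 5.12 untreated on a probe near background. The groups did not overlap, but the change was 0.073 and the raw intensities, 86.7 to 90.2 with withaferin A against 90.2 to 93.4 untreated, had the opposite order. Pdk3 and Pdk1 encode kinases that switch off pyruvate dehydrogenase and so keep pyruvate out of the mitochondrial citric acid cycle. Pdk3 read 8.26, 8.24 and 8.60 with withaferin A, against 8.38, 8.49 and 8.84 untreated, a change of −0.20 (SE 0.18, limma adjusted p = 0.533) that was −0.065 without untreated array 3, and Pdk1 had a change of 0.012.

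The oxygen-sensing genes were near 0 or had wide intervals. Hif1a, the regulated alpha subunit of HIF-1, read 8.95, 9.19 and 8.72 with withaferin A, against 8.63, 9.01 and 9.11 untreated. The groups overlapped at a change of 0.034 (SE 0.19, 95% interval −0.39 to 0.46, limma adjusted p = 0.936), which was −0.18 under median scaling. The dimmer second probe gave −0.21. HIF-1 alpha is controlled mainly at the level of protein stability, which an array of transcripts does not read. Egln1, the main prolyl hydroxylase that marks HIF for destruction and itself a HIF target, read 6.68, 6.94 and 7.67 with withaferin A, against 7.17, 5.70 and 7.30 untreated. Its change of 0.37 (SE 0.41, limma adjusted p = 0.619) was −0.14 without untreated array 2. Egln3, a prolyl hydroxylase whose own transcript is induced by low oxygen, had a change of 0.051 (95% interval −0.97 to 1.07).

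None of the 8 tested hypoxia targets outside glycolysis passed. Of the 8, 4 had a change above 0 (all genes: 50.7%) and 4 below. Under median scaling, 2 were above 0 (2877 of all 9756 genes) and 6 below. Adm, the vasodilator peptide adrenomedullin, read 6.86, 6.04 and 7.87 with withaferin A, against 6.11, 4.70 and 6.56 untreated. The groups overlapped, and the probe was not detected on untreated array 2. The change of 1.13 (SE 0.52, 95% interval −0.04 to 2.30, limma adjusted p = 0.219) was 0.58 without that array, 0.66 without withaferin A array 3 and 0.61 without background correction. It passed in 2 of 16 alternative settings, both of which use the array numbers as pairs or blocks. These were the deposited value table, centred within same-numbered pairs (limma adjusted p = 0.0054), and the replicate block (limma adjusted p = 0.0070). Bnip3l, a receptor for the removal of mitochondria, read 11.09, 10.78 and 11.66 with withaferin A, against 11.74, 11.22 and 12.04 untreated. The groups overlapped at a change of −0.49 (SE 0.27, limma adjusted p = 0.294), which was −0.29 without withaferin A array 2, −0.30 without untreated array 3 and −0.73 without withaferin A array 3. It passed in 2 of 17 alternative settings, the deposited value table centred within same-numbered pairs (limma adjusted p = 0.0097) and array weights (limma adjusted p = 0.0476). Ankrd37, a small ankyrin-repeat protein, read 9.03, 8.47 and 9.79 with withaferin A, against 8.98, 6.60 and 9.50 untreated. Its untreated array 2 was far below the other 5, and the change was 0.74 (SE 0.65). The changes of Ndrg1, a stress-responsive gene, Kdm3a, a histone demethylase, and Mxi1, an antagonist of MYC, were −0.24, −0.090 and −0.20. The membrane carbonic anhydrases Car9 and Car12, which help tumour cells dispose of acid, had changes of 0.041 and 0.14, with 95% intervals of −1.74 to 1.82 and −1.35 to 1.62. Intervals of that width do not show that Car9 and Car12 were unaltered.

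**Figure D2:**
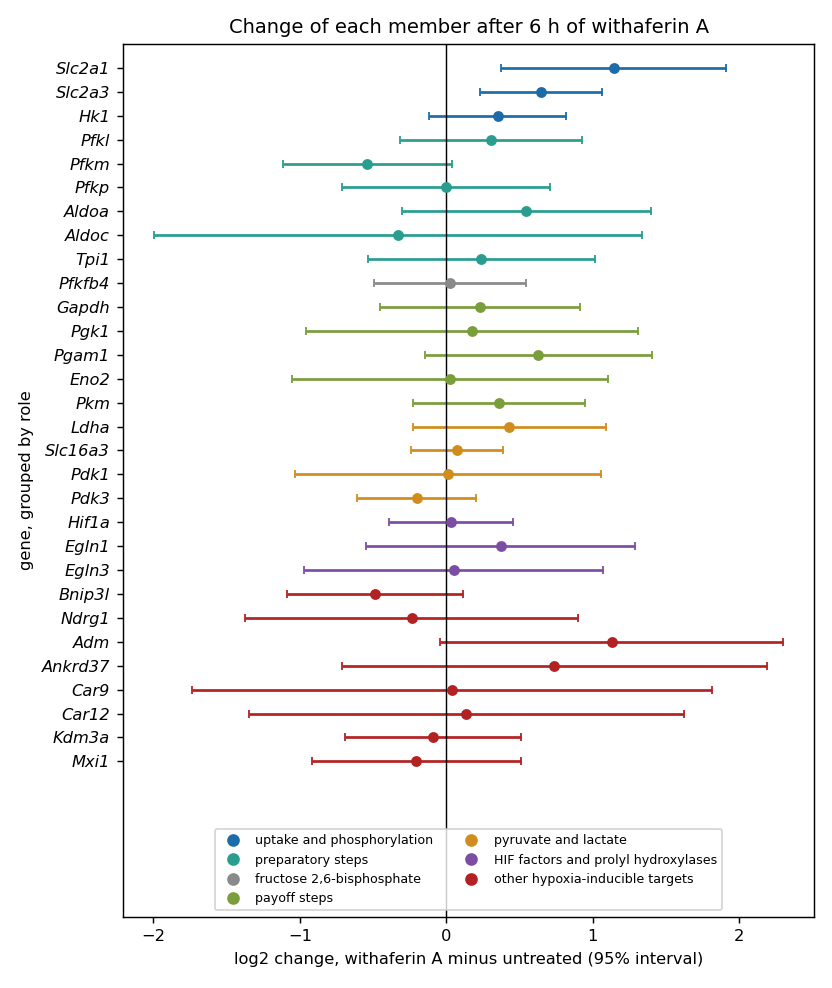
Log2 change, withaferin A minus untreated, of the 30 tested genes in order of role, with the 95% interval of each from the limma fit over 3 and 3 arrays; colours are roles. The intervals of Slc2a1 and Slc2a3 lie above 0 before adjustment, and those of Car9, Aldoc, Car12 and Ankrd37 are the widest.

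Apart from the treatment, these genes differed more between arrays of 1 group than most genes on the array did. The within-group SD, pooled over both groups, had a median of 0.564 over the 30 genes (range 0.0446 to 1.47) and 0.220 over all tested genes. It was above the 90th percentile of all genes, 0.419, for 23 of the 30. The 1696 tested genes at or above the median level of the 30 had a median SD of 0.190, below that of all genes. Of the 100 tested genes with the highest within-group SD, 11 were among the 30.

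The differences ran the same way in both groups. Array 2 was the lowest of its group for 24 of 30 genes with withaferin A (all genes: 38.3%), for 23 untreated (31.9%) and for 21 in both (10.8%). Array 3 was the highest of its group in both groups for 22 of 30 (all genes: 15.7%). The mean level of the 30 genes was 10.11, 9.66 and 10.66 on withaferin A arrays 1, 2 and 3, against 10.11, 9.28 and 10.47 on untreated arrays 1, 2 and 3. The same means over all tested genes lay between 8.07 and 8.11. In the raw intensities, array 2 was the lowest in both groups for 19 of the 30 and 638 of all 9756 genes. Since array number and any difference in passage or handling cannot be told apart, the array number is used here only as a name. That array 2 was low was seen in these same values, so the counts describe these arrays and are not a test.

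The 8 hypoxia targets outside glycolysis had the deepest median departure of array 2 from the mean of arrays 1 and 3, −1.14 with withaferin A and −1.41 untreated. Car9 had raw intensities of 2580.5, 692.4 and 4150.9 on the withaferin A arrays, against 3552.1, 731.9 and 3899.4 on the untreated arrays. On the log2 scale, array 2 lay below the mean of arrays 1 and 3 (departures of −2.43 with withaferin A and −2.57 untreated), and the mean of the 2 departures was the second lowest of all tested genes. The other 2 Car9 probes were lowest on the same arrays. Car12 had raw intensities of 1219.5, 483.2 and 2392.3 with withaferin A, against 1795.0, 520.7 and 1774.9 untreated, and array 2 departed by −2.03 and −2.01. For both genes, the 2 arrays numbered 2 were closer to each other across the treatment than either was to another array of its own group.

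The mean departure of array 2 over both groups placed 17 of the 30 genes among the 100 lowest of 9756. Array 2 was at least 1 log2 unit below the mean of arrays 1 and 3 for 8 of the 30 with withaferin A (all genes: 1.09%). The same held for 16 untreated (all genes: 0.984%). Array 2 was that far below the mean in both groups for 17 of all tested genes (0.174%), and 6 of those were among the 30: Car9, Aldoc, Car12, Adm, Ndrg1 and Egln3. Ankrd37 was just outside, at −0.94 with withaferin A and −2.64 untreated. The other 11 genes were Krt19, Mgarp, Gbp2b, Tnfrsf9, Gbp2, Gbp3, D17H6S56E-5, Bhlhe40, Upk3bl, Hpse and Bsg. Bhlhe40 is a HIF target and Bsg the chaperone of the lactate transporters, Gbp2, Gbp2b and Gbp3 are interferon-induced GTPases, and Krt19 is a luminal keratin. Krt19, one of the 7 luminal markers, read 6.25, 4.83 and 8.68 with withaferin A, against 6.14, 4.65 and 7.91 untreated, and its part in the result was not tested. A departure measured in this way also grows with a high array 3. Bsg read 5.07, 4.77 and 7.01 with withaferin A, against 4.73, 4.58 and 6.56 untreated. Ndrg1 read 12.09, 11.30 and 13.32 with withaferin A, against 12.44, 11.69 and 13.30 untreated.

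Not all genes shared the departure, nor did both groups to the same depth. Hif1a on array 2 stood above the mean of its group's other arrays, by 0.35 with withaferin A and 0.14 untreated. Pfkfb4 and Pfkm were above on untreated array 2, by 0.48 and 0.32, and below on withaferin A array 2. The median departure of array 2 over the 30 genes was −0.571 with withaferin A and −1.12 untreated. The untreated departure was the deeper for 20 of the 30 and for 4652 of all 9756 tested genes. Pgk1 departed by −0.68 with withaferin A and −2.09 untreated, Pdk1 by −0.72 and −1.69, and Egln1 by −0.24 and −1.53. Eno2 ran the other way, with −1.52 and −0.24. A gene that was low on untreated array 2 alone, as Ldha was, has a positive change that rests on that array, and without array 2 of both groups the median change of the 30 was 0.055 and none passed.

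**Figure D3:**
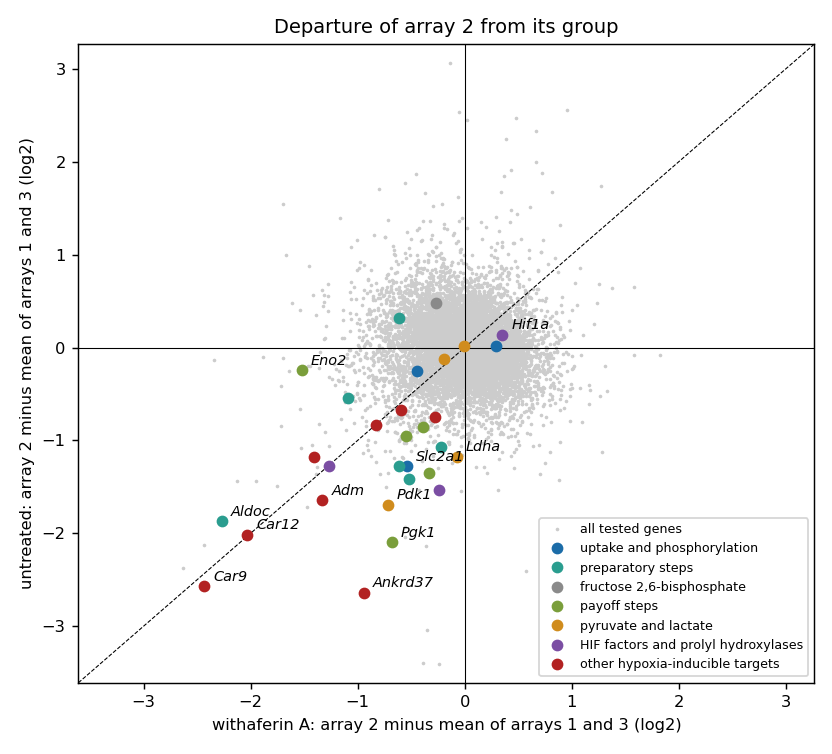
Level on array 2 minus the mean level on arrays 1 and 3 of the same group, for withaferin A (horizontal, log2) and untreated (vertical, log2); small grey points are the 9756 tested genes, large points the 30 genes coloured by role, and the dashed line marks equal departures. The grey cloud is centred near 0, and Car9 lies at −2.43 and −2.57, with most of the 30 genes below and left of the cloud's centre.

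**Figure D4:**
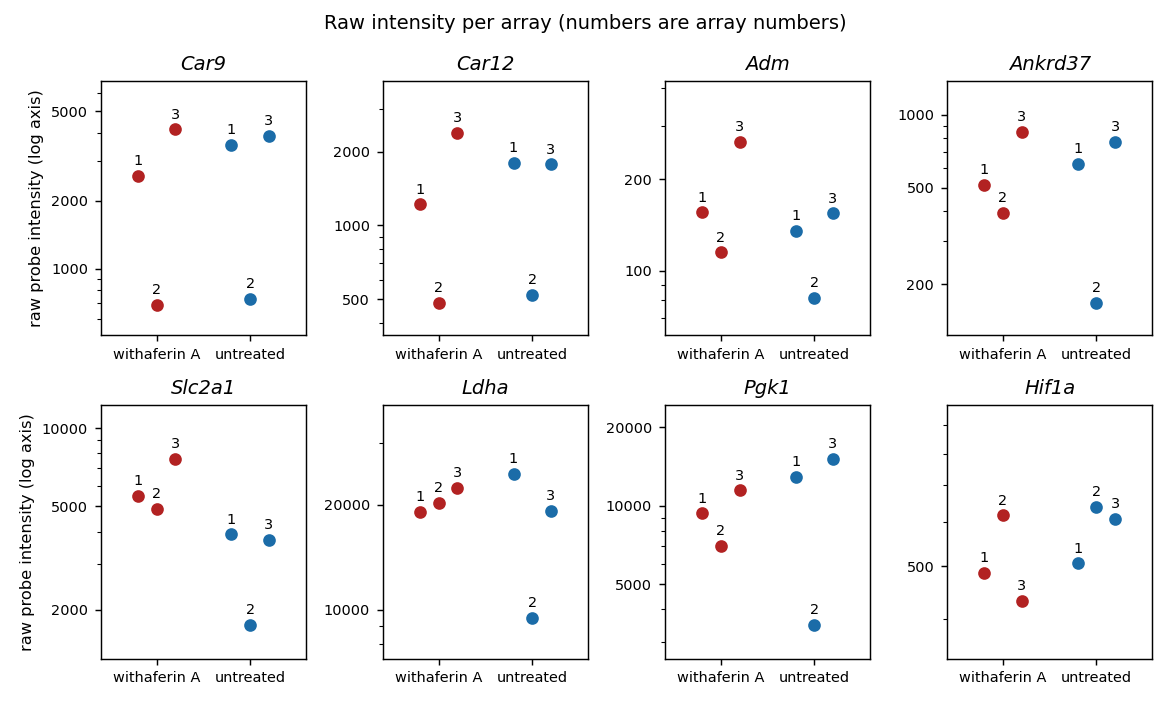
Raw probe intensity (log axis, a separate range in each panel) of 8 genes on the withaferin A arrays (red, left) and the untreated arrays (blue, right), with the array number over each point. Array 2 is far below arrays 1 and 3 in both groups for Car9 and Car12, in the untreated group for Ldha and Pgk1, and in neither for Hif1a.

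The stretch before the transcription start of these genes was read for the core of the HIF binding site, ACGTG or GCGTG on either strand. The list was itself made up of glycolytic genes and hypoxia targets, so its share of cores is not independent of that choice. Any link between the core and the levels on the arrays was not tested. The promoter windows are those of RefSeq on build GRCm38.p6, from 250 bases before to 50 bases after each annotated start, and any of a gene's windows could hold a match. Of the 30 tested genes 27 had a window, and 24 of them held the core (88.9%). The same share was 68.6% of the 7970 tested genes that had a window and 46.7% of all 27025 genes that had one. A gene with several windows has more chances to hold a match, and the number of windows per gene was not matched in this comparison. Car12, Eno2 and Tpi1 held none. The palindrome CACGTG, an E-box that MYC family proteins bind and that contains the HIF core, was in 3 of the 27 (11.1%) and in 12.0% of tested genes. The antioxidant element TGACNNNGC was in 14.8% against 16.6%, and the heat shock element GAANNTTC in 7.41% against 6.91%. A match of these letters is a description of the sequence, not a bound site.

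The 160 bases before the start are printed, 5′ to 3′ along the gene, for 4 of the hypoxia targets with the widest spread between arrays and for Slc2a1, Ldha and Pgk1, so that promoters with and without the core can be set beside the values above. Capitals mark the core, which appears as CACGT or CACGC where it is on the other strand. The stretches lie in GRCm38.p6 at chr4:43506866-43507025 on the plus strand for Car9, chr7:110627497-110627656 on the plus strand for Adm, chr8:45999851-46000010 on the minus strand for Ankrd37, chr9:66713526-66713685 on the plus strand for Car12, chr4:119108585-119108744 on the plus strand for Slc2a1, chr7:46845644-46845803 on the plus strand for Ldha, chrX:106186940-106187099 on the plus strand for Pgk1.
Car9: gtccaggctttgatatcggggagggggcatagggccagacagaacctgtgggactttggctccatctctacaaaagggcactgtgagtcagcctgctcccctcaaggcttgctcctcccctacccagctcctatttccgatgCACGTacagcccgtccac
Adm: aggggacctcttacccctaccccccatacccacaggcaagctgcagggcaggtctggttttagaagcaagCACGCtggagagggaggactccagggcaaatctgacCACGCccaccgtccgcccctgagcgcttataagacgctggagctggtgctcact
Ankrd37: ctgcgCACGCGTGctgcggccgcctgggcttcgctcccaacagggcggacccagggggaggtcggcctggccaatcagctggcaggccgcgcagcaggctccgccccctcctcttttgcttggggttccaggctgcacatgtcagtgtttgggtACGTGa
Car12: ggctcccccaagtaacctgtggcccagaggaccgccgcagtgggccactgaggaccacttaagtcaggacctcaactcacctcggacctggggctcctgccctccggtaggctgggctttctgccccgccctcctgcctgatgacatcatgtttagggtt
Slc2a1: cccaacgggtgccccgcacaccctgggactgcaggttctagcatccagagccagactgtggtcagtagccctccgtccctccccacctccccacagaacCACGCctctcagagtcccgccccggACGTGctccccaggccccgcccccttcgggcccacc
Ldha: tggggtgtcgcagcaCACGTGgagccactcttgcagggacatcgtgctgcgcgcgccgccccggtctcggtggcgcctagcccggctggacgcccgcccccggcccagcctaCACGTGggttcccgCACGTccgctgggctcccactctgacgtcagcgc
Pgk1: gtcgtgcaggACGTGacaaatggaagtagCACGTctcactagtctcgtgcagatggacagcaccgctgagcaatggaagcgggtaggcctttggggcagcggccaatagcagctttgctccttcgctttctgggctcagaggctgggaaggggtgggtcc
Car9 had 1 match close to the start, Adm 2 and Ankrd37 3, of which a pair overlap in 1 capital run. Car12, which was low on array 2 of both groups as Car9 was, had 0 matches in this stretch, which says only that these letters are not in it. Slc2a1 and Pgk1 had 2 matches each. Ldha had 5 matches, with both strands of 2 palindromes counted, and was low on untreated array 2 alone.

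Lists of related genes that are not among the 38 were read in the same fit. Of 35 other hypoxia-inducible genes, 26 were tested, and 2 rose and 0 fell at the threshold used above (all genes: 2.81% higher and 4.02% lower). Gbe1, the glycogen branching enzyme, read 6.32, 6.53 and 6.15 with withaferin A, against 5.06, 4.45 and 5.33 untreated, and rose by 1.39 (SE 0.23, limma adjusted p = 0.00957). Ddit4, the stress-induced inhibitor of mTORC1 also called REDD1, read 11.66, 11.48 and 11.87 with withaferin A, against 10.88, 10.40 and 10.90 untreated, and rose by 0.94 (SE 0.19, limma adjusted p = 0.0223). Neither gene's groups overlapped. Ddit4 missed the threshold without withaferin A array 1 (limma adjusted p = 0.0893), without untreated array 2 (limma adjusted p = 0.0544), without untreated array 3 (limma adjusted p = 0.0518) and without array 2 of both groups (limma adjusted p = 0.0611). With no filter on dim probes both missed it, Gbe1 at a limma adjusted p of 0.0679 and Ddit4 at 0.0779. The Gbe1 change was 0.61 without background correction, and it had no value where detection on all 6 arrays was required. The median change of the 26 was 0.30, against 0.0054 over all tested genes. Of the 26, 9 were past an unadjusted p of 0.05 in limma, all higher (all genes, higher: 11.8%), and untreated array 2 was the lowest of its group for 23 (all genes: 31.9%). Their mean level was 9.53, 9.42 and 9.65 on the withaferin A arrays, against 9.39, 8.68 and 9.45 on the untreated arrays.

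Of the genes that partner or regulate HIF, 11 of 12 were tested and none passed or reached an unadjusted p of 0.05 in limma. The smallest p was that of Arnt, the constant partner of the HIF alpha subunits, which read 8.65, 8.25 and 9.10 with withaferin A, against 8.74, 9.28 and 9.25 untreated. Its groups overlapped, and the change of −0.43 (limma adjusted p = 0.306) was −0.22 without withaferin A array 2, −0.64 without withaferin A array 3 and −0.037 as the mean of its 6 tested probes. Of 26 other enzymes and isozymes of glycolysis and gluconeogenesis, 7 were tested and none passed or reached an unadjusted p of 0.05 in limma, and the smallest p was that of Ldhd, a lactate dehydrogenase for the D form. Ldhd read 5.65, 5.29 and 5.27 with withaferin A, against 5.73, 6.29 and 5.59 untreated, a change of −0.47 (limma adjusted p = 0.213) that was −0.26 without untreated array 2. Of 11 genes of pyruvate entry into mitochondria, 6 were tested, and 1 rose and 0 fell (all genes: 2.81% higher and 4.02% lower). Pdp1, the phosphatase that reactivates pyruvate dehydrogenase and so opposes the Pdk kinases, read 7.76, 7.70 and 7.67 with withaferin A, against 7.11, 6.83 and 6.90 untreated, and rose by 0.76 (SE 0.15, limma adjusted p = 0.0200). The groups were well apart, but the call was lost without withaferin A array 1 (limma adjusted p = 0.102), withaferin A array 2 (limma adjusted p = 0.0627), untreated array 2 (limma adjusted p = 0.0557), untreated array 3 (limma adjusted p = 0.0700) or array 2 of both groups (limma adjusted p = 0.113). Under median scaling its change was 0.51 (limma adjusted p = 0.0621).

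Of 11 genes of glucose sensing and the MYC family, 10 were tested and none passed, and 2 were past an unadjusted p of 0.05 in limma, both lower (all genes, lower: 14.2%). Txnip, an arrestin that is induced by glucose and restrains glucose uptake, read 10.05, 9.11 and 10.80 with withaferin A, against 10.88, 11.51 and 11.95 untreated. Each withaferin A array was below each untreated array, at a change of −1.47 (SE 0.40, limma adjusted p = 0.0628). The call was made in 6 of the 17 alternative settings, among them without withaferin A array 3, at −1.87 (limma adjusted p = 0.0140). Arrdc4, a related arrestin also induced by glucose, read 8.81, 8.83 and 8.80 with withaferin A, against 9.22, 9.59 and 9.33 untreated. Its groups did not overlap, at a change of −0.56 (limma adjusted p = 0.0642).

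**Figure D5:**
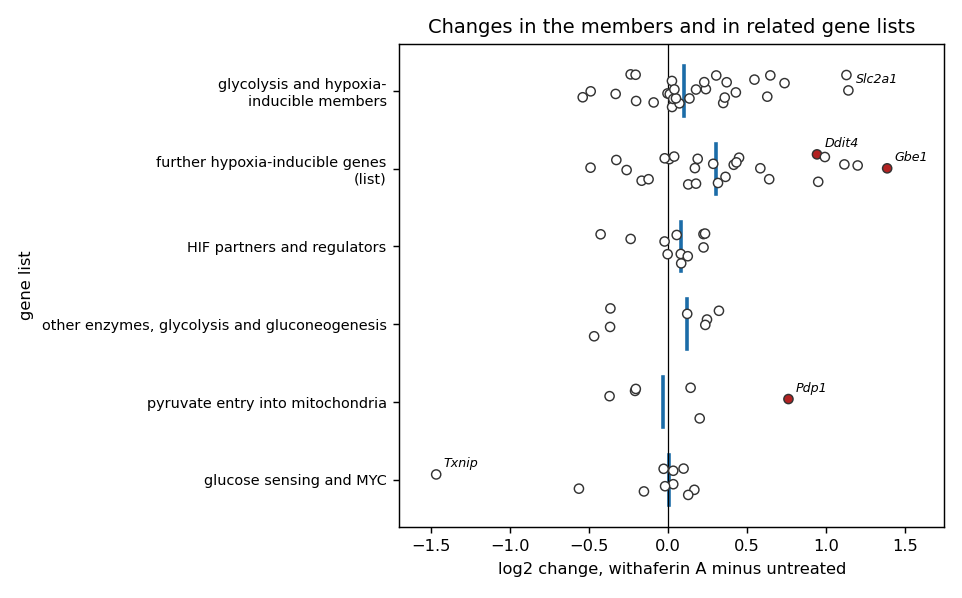
Log2 change, withaferin A minus untreated, of each tested gene (circle) in the 30 glycolysis and hypoxia-inducible genes and in 5 lists of related genes; filled circles passed the test, blue bars are list medians, and vertical scatter within a row has no meaning. The filled circles are Gbe1, Ddit4 and Pdp1, all above 0, and no circle is filled in the top row.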

How the data were processed

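RNA of withaferin A-treated and untreated cells was read on 6 one-colour Illumina arrays, 3 per group. The deposited table holds, per the file headers, a non-normalized intensity and a detection p-value per probe. The deposited detection values nevertheless lie near 1 for bright probes, so they were read, from the values alone, as a fraction equal to 1 minus p. A second deposited table holds log2 values that the authors centred within same-numbered pairs, read from the values themselves: the largest departure from a mirror image was 1e-06. Its differences had slopes of 1.01 to 1.11 against raw log2 ratios, its column medians were −0.0026 to 0.0026, and no source used here names its normalization. It served as an alternative.

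Intensities were processed with neqc in limma 3.58.1 (R 4.3.3): normexp background correction on negative controls inferred from detection p, offset 16, quantile normalization and log2. Of 45281 probes, 19077 with detection p under 0.05 on at least 3 arrays were tested with lmFit and eBayes, two-sided, with Benjamini-Hochberg adjustment and a threshold of 0.05. A gene took its tested probe with the highest mean level. Of the probes, 34885 had 1 listed symbol, 18 several and 10378 none. On simulated data the test recovered 51 of 100 true 2-fold differences and 93 of 100 true 4-fold differences, and it made 2 false calls in 18877 probes with none. Recovery was not worked out for the 30 genes, whose median within-group SD was 0.564 against 0.220 over all tested genes.

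The genes and lists were chosen with earlier results of these data known. Values on each array are given for the 2 genes of each role with the smallest p. Of the related lists they are given for genes that passed or, failing that, the gene with the smallest p. Aldoc, Pgk1, Slc16a3, Ankrd37, Car9, Car12, Arrdc4, Krt19, Ndrg1 and Bsg were added after their values were seen. Nothing in the labels says that the 3 arrays of a group came from separate experiments beyond the 3 passages, so the p-values rest on array-to-array spread alone, which may be technical, and the number of arrays limits the precision. Alternatives varied the background correction, scaling, probe filter, variance model, array weights, probe choice, replicate block and the arrays included. Without array 2 of both groups was added after seeing the data. Promoter sequences came from RefSeq, build GRCm38.p6.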

Additional observations from a re-analysis of the deposited data

How the results depend on the processing

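The count of genes passing, 666, was 1428 under median scaling, 1688 with no normalization between arrays, 2687 in the deposited value table, 2150 with array weights, 337 with no filter on dim probes, 277 without array 2 of both groups, and 238 to 886 when 1 array was left out. Among the 30 glycolysis and hypoxia-inducible genes, 0 passed in the main fit. Under median scaling the count was 1, Slc2a1 (3.33%, all genes: 14.6%). With no normalization it was 2, Slc2a1 and Pfkm (6.67%, all genes: 17.3%). In the value table it was 7 (23.3%, all genes: 27.5%), with Adm, Aldoa, Pgam1, Pkm, Slc2a1 and Slc2a3 higher and Bnip3l lower. With array weights it was 4 (13.3%, all genes: 22%), with Slc2a1 and Slc2a3 higher and Bnip3l and Pfkm lower. It was 0 to 1 when 1 array was left out (all genes: 2.44% to 9.08%). The cause was not tested. Their median change, 0.10, was −0.034 under median scaling and −0.076 with no normalization, and ran from −0.14 to 0.43 with 1 array left out. Each alternative moved it by less than the spread of their mean between arrays of a group, an SD of 0.559. That SD is larger than the change itself, so staying under it does not show that the change was stable.

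With the replicate number as a block, 1023 genes passed (10.5%), among them 2 of the 30 (6.67%), Slc2a1 (limma adjusted p = 0.0104) and Adm (limma adjusted p = 0.0070). The main fit did not take the numbers as pairs. Over all tested probes, same-numbered arrays' deviations from their group means correlated at 0.267, −0.0386 and 0.318, and withaferin A array 2 correlated best with untreated array 1. Over the 30 genes the same-numbered correlations were 0.305, 0.580 and 0.698, so whether the numbers mark pairs was not settled. The SEs and intervals of the main fit include any difference shared by arrays of the same number.

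Small changes turned sign. Pfkfb4 was −0.22 under median scaling, −0.26 with no normalization, −0.13 with array weights, −0.19 without withaferin A array 3 and −0.14 without untreated array 1 (−0.19 to 0.28 with arrays left out). Hif1a was −0.18 under median scaling, −0.22 with no normalization, −0.088 with the mean of its probes, −0.083 without withaferin A array 2, −0.11 without untreated array 1 and −0.037 without array 2 of both groups (−0.11 to 0.15 with arrays left out). Egln1 was −0.083 with array weights, −0.14 without untreated array 2 and −0.060 without array 2 of both groups (−0.14 to 0.66 with arrays left out). Adm had no value where detection on all 6 arrays was required. With no normalization, the median change of all genes was −0.23. Signals near background, as for Slc2a3, Slc16a3 and Adm, limit the size of a change that can be read.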
